A study of Mus musculus with 12 samples.

Results

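The expression of 10 target genes of Nrf2, the transcription factor encoded by Nfe2l2, was examined in mouse bone marrow-derived dendritic cells (BMDCs). The genes were chosen by symbol, with earlier results of these data known. They are Hmox1, Nqo1, Gclm, Gclc, Srxn1, Txnrd1, Slc7a11, Osgin1, Gsr and Me1, and they are 10 of the 55335 genes listed in the processed tables. All 10 were among the 14357 genes with enough reads to be tested. In unstressed cells Keap1 holds Nrf2 in the cytoplasm and passes it to the proteasome, and electrophiles or oxidants that modify Keap1 let Nrf2 reach the nucleus. There it pairs with a small Maf protein at antioxidant response elements, which the repressor Bach1 can also occupy. The targets make glutathione, reduce oxidised thioredoxin and glutathione, supply NADPH, break down haem and reduce quinones, and in myeloid cells the pathway is known for its part in limiting oxidative and inflammatory injury.

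RNA-seq was carried out on BMDCs from CreER mice of the C57BL/6 strain, whose Ctcf gene is intact, after 6 days of culture with GM-CSF and a change of medium every 2 days. Ages of the animals are not given in the labels, and the methods name young adults of both sexes. Untreated cells are called WT, cells given 100 ng/ml lipopolysaccharide (LPS) for 3 h are called WTL, cells given 100 µM JSH-23 for 3 h are called WT + JSH23, and cells given the same JSH-23 treatment and then LPS for 3 h are called WTL + JSH23. JSH-23 is a small molecule used to keep the NF-κB subunit RelA out of the nucleus. The study used it to block NF-κB signals in cells with intact CTCF when examining enhancer activation, chromatin loops and expression of RelA target genes. All cells carry CreER, a tamoxifen-inducible Cre inserted at Rosa26, and the methods describe 4-hydroxytamoxifen on the first day of culture for deleting Ctcf. Whether these cultures received it, and whether WT and WTL received a solvent, is not given in the sources used here. BMDCs were taken as floating cells selected with CD11c beads.

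Each group had 3 libraries, numbered 4 to 6 in WT and WTL and 1 to 3 in the JSH-23 groups, so if these numbers stand for separate culture sets, set and JSH-23 cannot be told apart. The methods call the replicates biological, the labels do not say that they came from separate cultures or animals, and p-values measure the spread between these libraries. Library totals ran from 24664724 to 34837847 expected counts. The third library of WTL + JSH23 stood apart from the others of its group. Its chi-square per degree of freedom against them was 8.19 and 9.12, against 2.32 to 4.5 for all other replicate pairs. It was the highest of its group for 8 of the 10 genes, but so was library 6 of WTL. Library 5 of WT was the highest of its group for 7 and the first of WT + JSH23 for 6. Dendritic cell markers (Itgax, Cd74, H2-Ab1, Flt3, Zbtb46, Dpp4 and Ccr7) were detected in every group, with Flt3 at group means of 2.42 to 3.2 TPM. The summed level of 8 macrophage markers differed between groups, from 2248 to 2366 TPM in WT, 1566 to 1673 in WTL, 1475 to 1535 in WT + JSH23 and 1148 to 1189 in WTL + JSH23. These sums are not scaled between libraries. In the fit on scaled counts described below, 2 of the 8 (Adgre1 and Mertk) rose with LPS alone, 5 fell and 1 did not pass. Of all tested genes 31% were called higher and 34.7% lower there. Summed neutrophil markers lay between 155 and 205.7 TPM in all 12 libraries and came mainly from S100a8 and S100a9, while Ly6g was at group means of 0.41 TPM or less. B cell, T cell, erythroid and mast cell lists each summed to 6.41 TPM or less, and haemoglobin genes Hba-a1 and Hba-a2 were at 0 in all libraries.

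The promoter windows in the RefSeq table of GRCm38.p6, 250 bases before to 50 bases from each start site, were searched for the letters of the antioxidant response element core, since the members were chosen as targets of the factor that binds it. The searched core was TGACNNNGC or its reverse complement GCNNNGTCA, and the AP-1 site TGANTCA, which can lie inside the core, was searched as well on both strands. The table held windows for 7 of the 10 genes (10 windows in all), with no entry for Hmox1, Gclc or Gsr. The core was found in 4 of those 7 genes (Gclm, Txnrd1, Me1 and Srxn1), against 14% of all genes in the table and 12.4% of its 32851 windows, and the AP-1 letters in 3 (Srxn1, Osgin1 and Me1), against 8.97% of all genes and 7.81% of all windows. The matches upstream of or across the start site are shown in capitals in these stretches, 5′ to 3′ on the gene's strand.

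Gclm, chr3:122245403-122245451, plus strand: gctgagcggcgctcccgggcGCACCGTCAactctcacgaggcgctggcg

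Txnrd1, chr10:82859094-82859142, plus strand: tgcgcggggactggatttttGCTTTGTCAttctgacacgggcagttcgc

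Me1, chr9:86695905-86695940, minus strand: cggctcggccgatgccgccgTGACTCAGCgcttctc

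Osgin1, chr8:119437030-119437076, plus strand: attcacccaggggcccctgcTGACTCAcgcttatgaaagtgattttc

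Srxn1, chr2:152105402-152105505, plus strand: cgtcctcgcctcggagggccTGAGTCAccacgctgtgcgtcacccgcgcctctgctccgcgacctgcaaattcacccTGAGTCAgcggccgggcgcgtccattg

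With the start site counted as 0, the reversed core of Gclm lay at -134 to -126 and that of Txnrd1 at -92 to -84, in 1 of the 3 windows listed for Txnrd1. In Me1 the core and the AP-1 letters overlapped at -6 to 2, across the start site. Osgin1 held the AP-1 letters alone at -97 to -91. Srxn1 held them at -102 to -96 and again at -45 to -39, and its core match lay after the start site, at 28 to 36, and is not printed. Slc7a11 and Nqo1 held neither set of letters in their windows. A match is a description of the letters, and binding of any factor was not measured in these data.

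Levels of the 10 genes were compared with each other in TPM, which corrects for transcript length. Hmox1 was the most abundant of the 10 in every group, at 966 ± 15.4 TPM in WT (SD, n = 3) and 3240 ± 152 TPM in WT + JSH23, where it was at rank 34 of all tested genes. In WT the order by mean TPM continued with Txnrd1 (418), Gclm (319), Srxn1 (223), Slc7a11 (164.5), Gsr (131), Nqo1 (72.1), Gclc (31.2), Osgin1 (10.4) and Me1 (9.99). Only the neighbours Osgin1 and Me1 overlapped in that order. The order changed with treatment. Slc7a11 moved above Srxn1 and Gclm in WTL, at 325 TPM against 247 and 230.5, and Gclm took the second place in WT + JSH23, at 780 TPM. In WT + JSH23 the libraries of Srxn1 and Txnrd1 overlapped, as did those of Gclc and Nqo1, and in WTL + JSH23 those of Nqo1 and Gclc did.

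Groups were compared in CPM, read counts scaled to the TMM-adjusted total of each library, with edgeR's quasi-likelihood test over all 12 libraries and Benjamini-Hochberg adjustment over the 14357 genes, and a gene passed at an adjusted p under 0.05. JSH-23 alone raised all 10 genes over WT, by 1.27-fold (Gsr) to 3.4-fold (Gclc). Of all tested genes, 18.8% were called higher in that comparison. The 3 libraries of WT + JSH23 lay above the 3 of WT for each of the 10 genes, a pattern seen in 24.4% of all genes. Hmox1, Gclm, Gclc, Srxn1 and Me1 rose more than 2-fold, against 2.43% of all genes. With LPS present, JSH-23 again raised all 10 over WTL without overlap of libraries, from 1.07-fold (Gsr) to 3.88-fold (Gclc), against 24.5% of all genes called higher and 27.9% without overlap. Here Hmox1, Gclm, Gclc, Srxn1 and Osgin1 rose more than 2-fold, against 3.75% of all genes. The median log2 fold change of the 10 was 0.93 without LPS and 1.13 with it, beside -0.01 and 0.02 over all tested genes. Without the third library of WTL + JSH23, all 10 still passed in the comparison with LPS, while 9 passed, with Gsr lost, without any of 4 other single libraries and with DESeq2, its size factors or no filter.

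**Figure D1:**
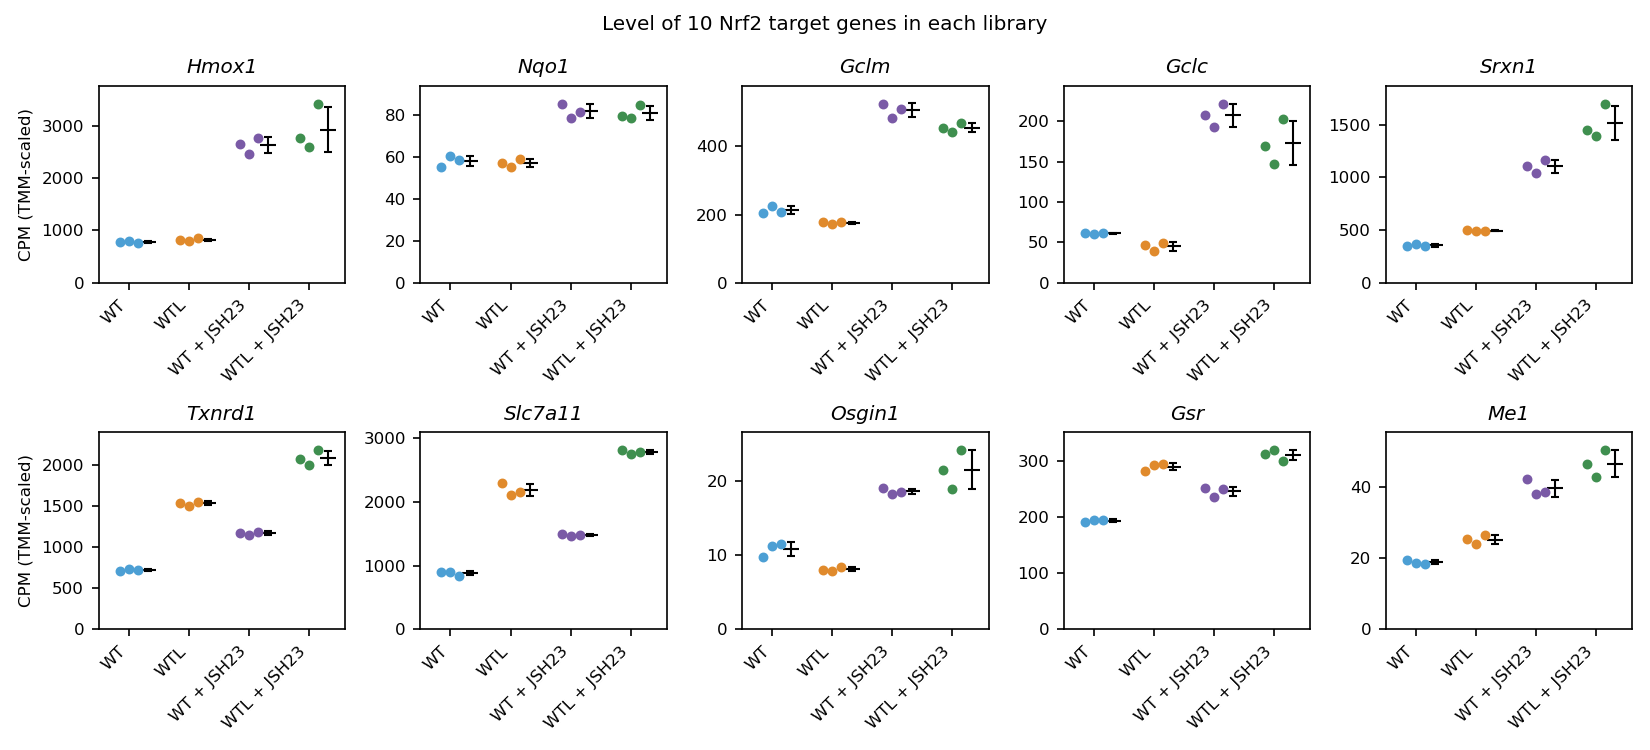
Level of each gene in CPM (vertical axis, linear from 0, its own range in each panel) in the 12 libraries by group, with the mean and SD of 3 libraries as a black bar beside the points. The JSH-23 groups lie above the matching groups without JSH-23 in all 10 panels, while the step from WT to WTL is upward in some panels and downward in others; Hmox1 reaches 3427 CPM in the third library of WTL + JSH23.

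LPS alone moved the same genes in both directions. Srxn1, Txnrd1, Slc7a11, Gsr and Me1 rose in WTL against WT, Gclm, Gclc and Osgin1 fell, and Hmox1 and Nqo1 did not pass. Over all tested genes 31% were called higher and 34.7% lower, so the falls are near the share of all genes. Txnrd1 and Slc7a11 rose more than 2-fold, against 7.36% of all genes. After JSH-23, LPS raised Srxn1, Txnrd1, Slc7a11, Osgin1, Gsr and Me1 and lowered Gclm and Gclc, against 27.4% of all genes higher and 27.1% lower, and no member passed 2-fold, where 5.85% of all genes were more than 2-fold higher. On log2(TPM + 1) without scaling between libraries, the median of all genes was -0.26 for LPS alone and -0.16 for LPS after JSH-23. In that fit the split was 4 higher and 5 lower for LPS alone, and 4 higher and 3 lower after JSH-23. There 9713 of 14357 genes passed with LPS alone, 1911 of them higher. After JSH-23, 7924 passed with LPS, 1977 of them higher. The 4 comparisons share libraries in pairs, so they are not separate evidence for one another.

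**Figure D2:**
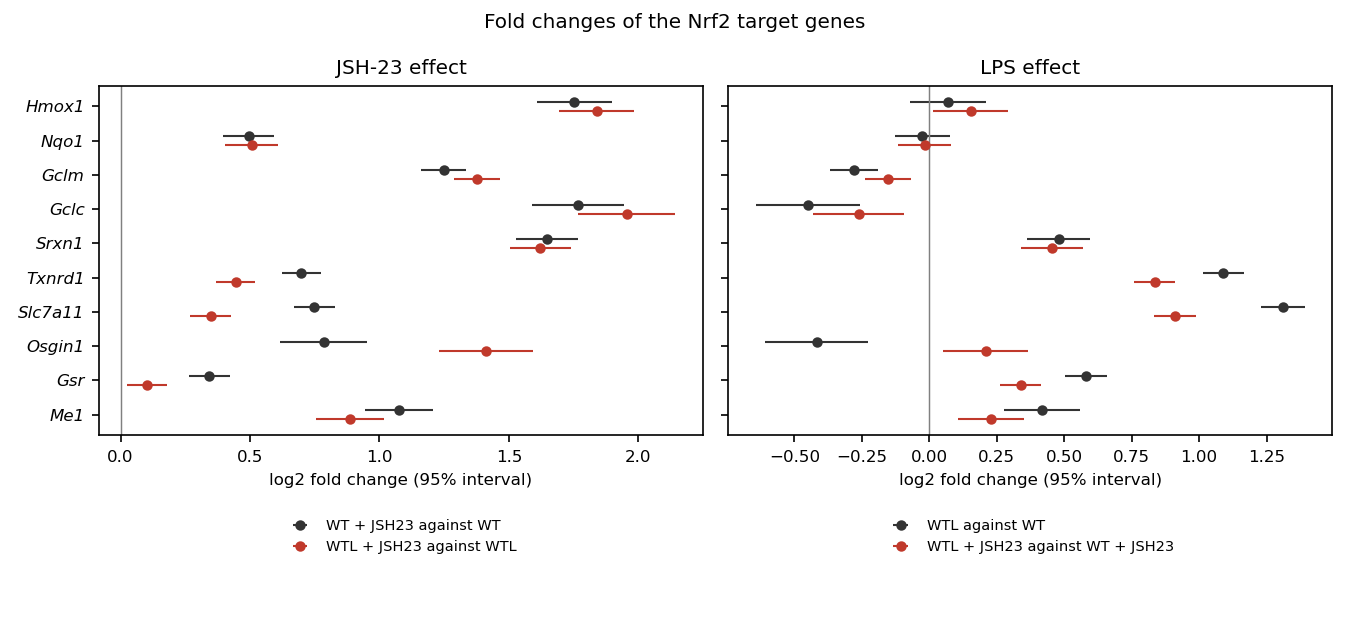
Log2 fold change of each gene (horizontal axis) with its 95% interval, for JSH-23 without and with LPS (left) and for LPS without and after JSH-23 (right). All points of the left panel lie above 0, and the right panel spreads from -0.45 for Gclc to 1.31 for Slc7a11.

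Both subunits of glutamate-cysteine ligase, the rate-limiting enzyme of glutathione synthesis, rose with JSH-23 and fell with LPS. Gclc encodes the catalytic subunit (ENSMUSG00000032350.9; chr9:77754535-77794485, plus strand, GRCm38) and Gclm the modifier subunit that raises its activity (ENSMUSG00000028124.15; chr3:122245557-122270732, plus strand). Gclc stood at 61, 60.4 and 61.8 CPM in WT, 46.1, 39.1 and 49.4 in WTL, 208, 193 and 222 in WT + JSH23, and 169, 148 and 203 in WTL + JSH23. Every JSH-23 library was above every library without it, the 3 WTL libraries were the lowest of the 12, and the JSH-23 groups with and without LPS overlapped. The JSH-23 effect was a log2 fold change of 1.77 ± 0.09 (SE) without LPS and 1.96 ± 0.09 with it. Gclc fell with LPS, by 0.45 ± 0.09 on the log2 scale alone (adjusted p = 0.000217) and by 0.26 ± 0.08 after JSH-23 (adjusted p = 0.00942). The second call was lost without the third WT + JSH23 library (-0.21, adjusted p = 0.051), without the second WTL + JSH23 library (-0.16, adjusted p = 0.0769) and with DESeq2 (adjusted p = 0.0721).

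Gclm moved in the same directions with less spread. It stood at 206, 225 and 208 CPM in WT, 177, 172 and 178 in WTL, 525, 484.5 and 510.2 in WT + JSH23, and 454, 442 and 470 in WTL + JSH23. No pair of groups that was compared overlapped. JSH-23 raised it 2.38-fold without LPS and 2.6-fold with LPS, and its log2 fold change with LPS was -0.28 ± 0.04 alone and -0.15 ± 0.04 after JSH-23 (adjusted p = 6.18e-06 and 0.00324). The 2 subunits did not change by the same factor: the ratio of Gclm to Gclc, in TPM, was 10.2 ± 0.702 in WT (SD, n = 3), 12.7 ± 1.28 in WTL, 7.37 ± 0.477 in WT + JSH23 and 8.43 ± 0.89 in WTL + JSH23. The highest ratio of the JSH-23 groups, 9.3, lay below the lowest of the other groups, 9.77, which is a description chosen after the values were seen and was not tested.

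Cystine import supplies the cysteine for glutathione through Slc7a11, the transport subunit of the cystine-glutamate antiporter (ENSMUSG00000027737.10; chr3:49892526-50443614, minus strand). Its level was 899, 902 and 843 CPM in WT, 2299, 2105 and 2153 in WTL, 1494, 1460 and 1485 in WT + JSH23, and 2810, 2749 and 2787 in WTL + JSH23. The 4 groups were ordered WT, WT + JSH23, WTL, WTL + JSH23 with no overlap. LPS gave the larger changes, 2.48-fold without JSH-23 and 1.88-fold after it, and JSH-23 raised it 1.68-fold without LPS and 1.27-fold with it. The log2 LPS response was smaller by 0.4 after JSH-23: the interaction was -0.40 ± 0.05 (adjusted p = 2.21e-05). In Gclc, by contrast, the interaction of 0.19 did not pass, with a 95% interval from -0.07 to 0.45.

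Reduction of oxidised glutathione back to its active form is the work of glutathione reductase, encoded by Gsr (ENSMUSG00000031584.16; chr8:33652523-33698163, plus strand). Gsr was at 191, 196 and 196 CPM in WT, 283, 293 and 295 in WTL, 252, 236 and 251 in WT + JSH23, and 313, 320 and 301 in WTL + JSH23. It had the same order of groups as Slc7a11, with narrower steps. LPS raised it 1.49-fold alone and 1.26-fold after JSH-23, JSH-23 raised it 1.27-fold without LPS, and the interaction was -0.24 ± 0.05 on the log2 scale (adjusted p = 0.0029). The rise with JSH-23 under LPS, 1.07-fold (adjusted p = 0.0295), was lost with DESeq2 size factors (adjusted p = 0.0968), with DESeq2 itself (0.0919), with no filter beyond 1 count (0.0661) and without any of 4 single libraries, the first and second of WTL + JSH23 and those numbered 4 and 5 of WTL (0.0519 to 0.119).

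The thioredoxin system has 2 representatives, Txnrd1, the cytosolic thioredoxin reductase (ENSMUSG00000020250.10; chr10:82833951-82897712, plus strand), and Srxn1, sulfiredoxin, which restores over-oxidised peroxiredoxins (ENSMUSG00000032802.8; chr2:152105516-152111376, plus strand). Txnrd1 was at 706, 731 and 720.2 CPM in WT, 1540, 1501 and 1549 in WTL, 1175, 1141 and 1186 in WT + JSH23, and 2069, 2003 and 2175 in WTL + JSH23. Its groups took the same order as those of Slc7a11 and Gsr, with no overlap. LPS raised Txnrd1 2.13-fold alone and 1.78-fold after JSH-23, and JSH-23 raised it 1.62-fold and, under LPS, 1.36-fold. The interaction was -0.25 ± 0.05 (adjusted p = 0.00139). The gene Eid3 overlaps Txnrd1 on the same strand, and how reads of the 2 were divided is not given in the sources used here.

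Srxn1 differed from Txnrd1 in which agent gave the larger rise. It stood at 343, 365 and 349 CPM in WT, 495, 488 and 492 in WTL, 1110, 1040 and 1164 in WT + JSH23, and 1449, 1392 and 1697 in WTL + JSH23. Here the groups were ordered WT, WTL, WT + JSH23, WTL + JSH23, with no overlap and with the third library of the last group highest. JSH-23 raised Srxn1 3.13-fold without LPS and 3.08-fold with it, and LPS raised it 1.39-fold and 1.37-fold. The 2 agents gave an interaction of -0.03, with a 95% interval from -0.19 to 0.14 (adjusted p = 0.865).

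Hmox1 encodes the inducible haem oxygenase, which opens haem to biliverdin, iron and carbon monoxide (ENSMUSG00000005413.8; chr8:75093621-75100589, plus strand). It was at 780.1, 802 and 766 CPM in WT, 812, 801 and 849 in WTL, 2664, 2469 and 2780 in WT + JSH23, and 2773, 2607 and 3427 in WTL + JSH23. The 6 JSH-23 libraries all lay above the other 6, and within each set the LPS and no-LPS libraries overlapped. JSH-23 raised Hmox1 3.37-fold without LPS and 3.58-fold with it. LPS alone gave a log2 fold change of 0.07 with a 95% interval from -0.07 to 0.21 (adjusted p = 0.387), a value whose sign turned on unscaled TPM (-0.27). After JSH-23 the LPS change was 0.15 (adjusted p = 0.057), and it passed with no filter beyond 1 count (adjusted p = 0.000924), with DESeq2 size factors (0.0422) and without the third WT + JSH23 library, the first WTL + JSH23 library or the second WTL + JSH23 library (0.035, 0.0306 and 0.00374). It also passed in the edgeR fit with same-numbered libraries as blocks (adjusted p = 0.00502). Macrophages also express Hmox1, and the summed macrophage markers were lower in the JSH-23 groups, with 7 of the 8 lower and none higher in WT + JSH23 against WT, where 22.1% of all genes were lower. In WTL + JSH23 against WTL 6 were lower and 1, Mrc1, was higher (log2 0.32, adjusted p = 2.79e-05). There 6994 of 14357 genes passed, 3516 of them higher. Markers of other cells also fell in that comparison: 5 of 7 dendritic cell markers were lower and 1 higher, and all 5 tested neutrophil markers were lower. In WT + JSH23 against WT, 3 dendritic cell markers were lower and 2 higher, and 1 neutrophil marker was lower. The part of cell mixture in these values was not tested, and in bulk RNA fewer cells of a type and less RNA per cell cannot be told apart.

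Nqo1 encodes a quinone reductase that uses NAD(P)H and prevents redox cycling of quinones (ENSMUSG00000003849.8; chr8:107388225-107403206, minus strand). Its libraries were at 55.4, 60.5 and 58.3 CPM in WT, 56.9, 55.1 and 59.2 in WTL, 85.4, 78.8 and 81.5 in WT + JSH23, and 79.4, 78.7 and 85 in WTL + JSH23. It followed JSH-23 alone, with overlap between LPS and no-LPS libraries in both settings. JSH-23 raised it 1.41-fold and, under LPS, 1.42-fold. The log2 LPS changes were -0.03, with an interval from -0.13 to 0.07, and -0.02 after JSH-23, with an interval from -0.11 to 0.08 (adjusted p = 0.646 and 0.788). On unscaled TPM they were -0.36 and -0.22 and passed.

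Me1, the cytosolic malic enzyme that makes NADPH from malate (ENSMUSG00000032418.15; chr9:86581371-86695953, minus strand), is the member that supplies reducing power. It was among the least abundant, at 19.4, 18.6 and 18.3 CPM in WT, 25.3, 23.8 and 26.3 in WTL, 42.2, 37.8 and 38.5 in WT + JSH23, and 46.4, 42.7 and 50.2 in WTL + JSH23. The order of groups was that of Srxn1, and no compared groups overlapped. JSH-23 raised Me1 2.11-fold without LPS and 1.85-fold with LPS, while LPS raised it 1.34-fold and 1.17-fold. On unscaled TPM neither LPS change passed (log2 0.15 and 0.05). The interaction, -0.19, did not pass (adjusted p = 0.16), and without the third WTL + JSH23 library it was -0.24 and did (adjusted p = 0.0445).

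Osgin1, an inhibitor of growth induced by oxidative stress (ENSMUSG00000074063.10; chr8:119434124-119446256, plus strand), behaved differently under LPS in the presence of JSH-23. Its level was 9.79, 11.2 and 11.5 CPM in WT, 8.02, 7.9 and 8.43 in WTL, 19.1, 18.3 and 18.5 in WT + JSH23, and 21.5, 19 and 24.2 in WTL + JSH23. The WTL libraries lay below all WT libraries, while those of WTL + JSH23 overlapped with WT + JSH23. It fell by 0.42 ± 0.09 on the log2 scale with LPS alone (adjusted p = 0.000444) and rose by 0.21 ± 0.08 with LPS after JSH-23 (adjusted p = 0.0245). The difference itself, the interaction, was 0.63 ± 0.12 (adjusted p = 0.000885). JSH-23 raised it 1.72-fold without LPS and 2.66-fold with it. The rise after JSH-23 was lost without any of 4 single libraries, the second or the third of WT + JSH23 or the first or the third of WTL + JSH23 (adjusted p = 0.0504 to 0.17), and with upper quartile scaling (0.168), and its sign turned on unscaled TPM (-0.07).

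The interaction of LPS and JSH-23 passed for 4 of the 10 genes, Txnrd1, Slc7a11 and Gsr downward and Osgin1 upward, against 18% of all tested genes (9.54% upward and 8.44% downward). For the other 6 genes it did not pass, and their 95% intervals reached at most 0.45 in size on the log2 scale. Gclm had an interval from 0.00 to 0.25 and an adjusted p of 0.151.

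The patterns of the 10 genes over the 12 libraries fell between 2 forms. Pearson's r of log2 CPM was positive for all 45 pairs, from 0.229 (Gclc and Gsr) to 0.994. Txnrd1, Slc7a11 and Gsr had r of 0.98 to 0.994 with one another, and Gclm, Gclc, Nqo1, Hmox1 and Osgin1 had 0.952 to 0.994 among themselves. Srxn1 and Me1 had r of 0.99 with each other, and their r with Slc7a11, at 0.662 and 0.702, exceeded those of the other 5 genes just named. With those 5 genes themselves Srxn1 had r of 0.888 to 0.976 and Me1 0.845 to 0.956. Both were thus closer to them than to Slc7a11, Txnrd1 or Gsr. These r describe the libraries of 4 groups, which share treatments, and carry no test. Among 7845 other genes with a mean of at least 10 CPM, the 3 closest in pattern to Slc7a11, the gene with the largest change under LPS, were Adss (0.996), Rps6kc1 (0.995) and Alcam (0.994). The 3 closest to Gclc, which had the largest log2 fold change under JSH-23 alone in the edgeR fit (1.77 ± 0.09, beside 1.75 ± 0.07 for Hmox1, an order that turned on TPM), were Ptgr1 (0.995), Creg1 (0.995) and Taldo1 (0.994).

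**Figure D3:**
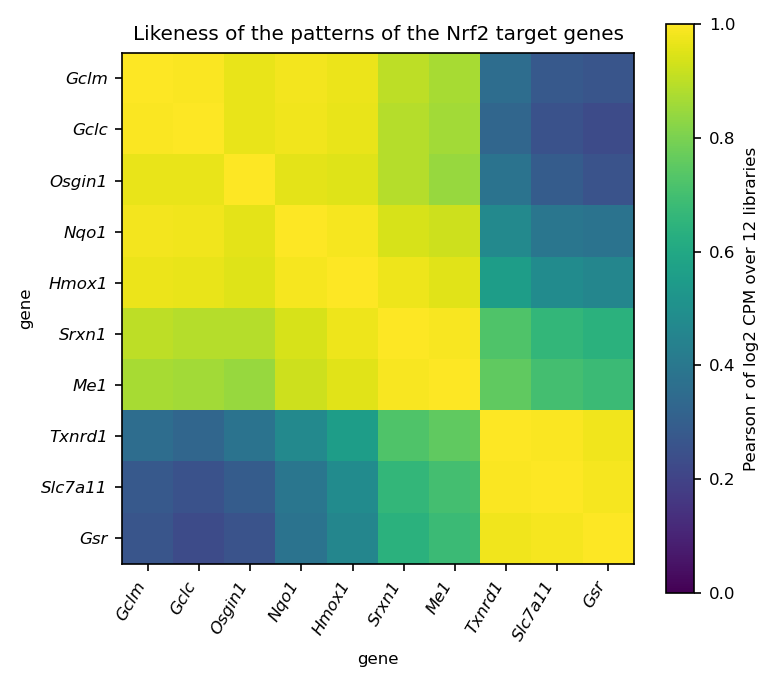
Pearson's r of log2 CPM between each pair of the 10 genes (both axes) over the 12 libraries, on a colour scale from 0 to 1. Gclm, Gclc, Osgin1, Nqo1 and Hmox1 form a block with r of at least 0.952, Txnrd1, Slc7a11 and Gsr another with r of at least 0.98, and the lowest value between the blocks is 0.229.

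Genes that control Nrf2 changed in both directions. Nfe2l2, which encodes Nrf2, was at 605, 652 and 609 CPM in WT and 434, 453 and 443 in WT + JSH23. It fell by 0.49 on the log2 scale with JSH-23 (adjusted p = 1.63e-09) and by 0.57 with JSH-23 under LPS, and rose by 0.17 with LPS alone (adjusted p = 0.000963). Keap1, the inhibitor, changed little, by log2 fold changes of -0.15 with LPS and -0.14 with JSH-23 (adjusted p = 0.00435 and 0.0136). Nrf2 is regulated mainly through the stability of its protein, which was not measured. Bach1, the repressor that competes for the same elements, was at 78.3, 81.5 and 76.6 CPM in WT, 39.3, 39.9 and 40.8 in WTL, 104, 105.2 and 102 in WT + JSH23, and 70.2, 68.9 and 82.6 in WTL + JSH23. Its mRNA was higher with JSH-23, in the same direction as the targets, by 0.40 without LPS and 0.88 with it, and it fell by 0.98 with LPS alone and by 0.49 with LPS after JSH-23, with an interaction of 0.49 (adjusted p = 0.000154).

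Of the 10 genes fixed as Nrf2 regulators, 5 rose, 2 fell and 3 did not pass with JSH-23 alone, where 18.8% of all tested genes were called higher and 22.1% lower, and 8 rose and 2 fell with LPS alone, where the shares were 31% and 34.7%. Sqstm1, which encodes the p62 adaptor that can sequester Keap1, rose with both, at 1305, 1295 and 1337 CPM in WT, 3350, 3303 and 3256 in WTL, 2901, 2799 and 3161 in WT + JSH23, and 5872, 5753 and 7100 in WTL + JSH23. Its log2 fold change was 1.33 with LPS and 1.17 with JSH-23. Mafg, a small Maf partner, rose by 0.84 with JSH-23, and Maff, another, rose by 2.79 with LPS alone. The list had a median log2 fold change of 0.15 with JSH-23 alone and 0.43 with LPS alone, beside -0.01 and -0.05 over all genes.

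Among 9 genes of detoxification and efflux, 8 rose and none fell with JSH-23 alone, with a median of 0.78. Of all genes 18.8% were called higher and 22.1% lower. This list, like the others, was chosen with earlier results of these data known. Ptgr1, a reductase of prostaglandins and reactive alkenals, rose from 55.2, 55.1 and 56.1 CPM in WT to 208, 179 and 203 in WT + JSH23, or by 1.82 on the log2 scale (adjusted p = 1.82e-15). Akr1b8, an aldo-keto reductase, rose by 1.65. LPS alone lowered 6 of these 9 genes and raised 1, with a median of -0.32, against 34.7% of all genes lower and 31% higher. The carbonyl reductases Cbr3 and Cbr1 fell by 0.83 and 0.66 with LPS alone.

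Among 12 genes of glutathione use and supply, 7 rose, 2 fell and 3 did not pass with JSH-23 alone (median 0.45), and 4 rose and 7 fell with LPS alone (median -0.20). Of all genes 18.8% rose and 22.1% fell with JSH-23 and 31% rose and 34.7% fell with LPS, so the 4 rises with LPS are near the share of all genes. Chac1, which degrades glutathione, had the largest change, a log2 fold change of 4.27 with JSH-23 alone (adjusted p = 3.61e-10), from 0.184, 0.142 and 0.207 CPM in WT to 3.38, 2.97 and 4.05 in WT + JSH23. These WT levels rest on few reads, so the size of that change is uncertain. Gsta3, a glutathione transferase of a multigene family whose reads may be divided, rose by 1.34 with JSH-23 and fell by 0.71 with LPS. Cth, which makes cysteine from cystathionine, rose by 1.61 ± 0.30 with LPS alone (adjusted p = 8.12e-05). It went from 0.459, 0.398 and 0.276 CPM in WT to 1.09, 1.27 and 1.15 in WTL, levels that also rest on few reads. Gss, the second enzyme of glutathione synthesis, rose by 1.30 with JSH-23 and fell by 0.57 with LPS, and is named here after its values were seen because it acts directly after the ligase.

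Among 7 thioredoxin and peroxiredoxin genes, 3 rose and 2 fell with JSH-23 alone (median -0.05), and 3 rose and 3 fell with LPS alone (median 0.08). The shares of all genes were 18.8% higher and 22.1% lower with JSH-23 and 31% and 34.7% with LPS, and the counts with LPS are near them. Txnip, which binds and inhibits thioredoxin, was at 170, 189 and 176 CPM in WT and 40.4, 35.9 and 37 in WT + JSH23, and fell by 2.24 on the log2 scale with JSH-23 and by 0.76 with LPS. Prdx1, a peroxiredoxin, rose by 0.87 with JSH-23, and Txn1, thioredoxin itself, rose by 0.55 with LPS.

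Among 8 genes of haem and iron handling, the neighbours of Hmox1 in the pathway, 6 rose and 1 fell with JSH-23 alone (median 0.41), and 2 rose and 3 fell with LPS alone (median -0.15). Beside shares of all genes of 18.8% higher and 22.1% lower with JSH-23 and 31% and 34.7% with LPS, the counts with LPS are near the background. Slc40a1, the iron exporter ferroportin, rose from 20.4, 20.8 and 18.7 CPM in WT to 137, 119 and 114 in WT + JSH23, or by 2.63 on the log2 scale. It fell by 0.49 with LPS alone and by 1.11 with LPS after JSH-23. Abcb6, a porphyrin transporter, rose by 1.06 with JSH-23. Hmox2, the constitutive haem oxygenase, fell by 0.41 with LPS alone.

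**Figure D4:**
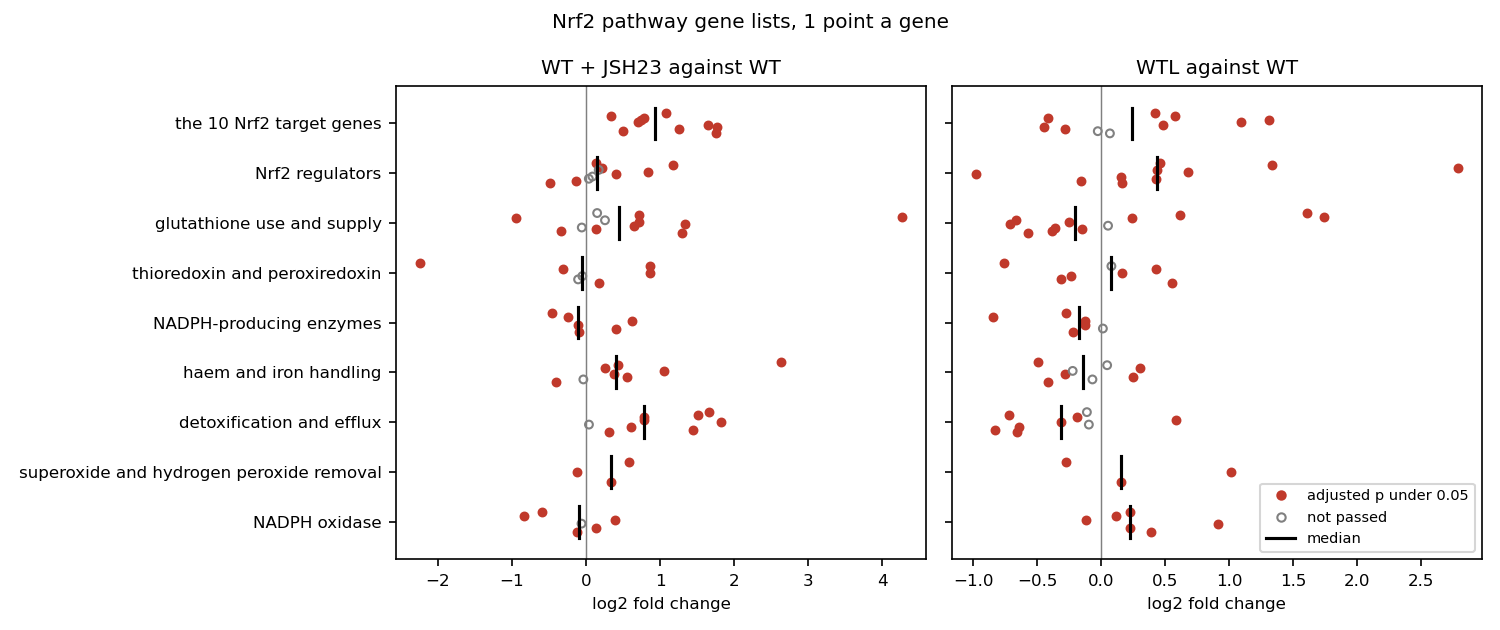
Log2 fold change (horizontal axis) of every tested gene in the 10-gene set and in 8 lists of the pathway (vertical axis), for JSH-23 alone (left) and LPS alone (right); filled points passed at an adjusted p under 0.05 and the black bar is the median. The 10 genes and the detoxification and efflux list lie mainly to the right of 0 with JSH-23, with medians of 0.93 and 0.78, and the same lists have medians of 0.24 and -0.32 with LPS.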

How the data were processed

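Per the labels and the study's methods, the authors trimmed paired-end reads (Trim Galore), aligned them to mm10 with STAR 2.6.0c and quantified genes with RSEM, and they deposited expected counts and TPM per gene and library. HOMER is also named in the submitters' processing notes. The labels name an rRNA depletion kit and the methods a polyA stranded kit, which was not settled, and the strand setting and annotation release are not given in the sources used here. Symbols came from GENCODE M21 (55154 of 55335 identifiers matched without version).

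Expected counts were rounded to whole numbers, filtered with filterByExpr (14357 genes, 99.94% to 99.95% of counts) and fitted with edgeR 4.0.16 in R 4.3.3 (TMM scaling, 1 mean per group, 12 libraries, 8 residual degrees of freedom, two-sided quasi-likelihood tests), after a run tested on simulated data. RSEM divides reads shared between loci: Gclm, Slc7a11 and Me1 had fractional counts in all 12 libraries, the other 7 genes in none. Gclm overlaps Gm17494 on the other strand and Gm6061 on its own, and Slc7a11 and Me1 overlap Gm37692 and Gm38230 on their own strands. Of the genes without fractional counts, Txnrd1 and Gsr also overlap a gene on their own strand (Eid3 and Gm24727). Depth of 24664724 to 34837847 gave each of the 10 genes at least 183 counts per library. DESeq2 1.42.0, limma 3.58.1 on log2(TPM + 1), other scalings and filters and leaving out each library were tried.

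The numbers were not used as pairs in the main fit. Same-numbered libraries of the 2 LPS comparisons had correlations of deviations of 0.0142 to 0.0614. Values this small over all genes do not exclude pairing, and a fit with same-numbered libraries as blocks is described below. The 10 genes and all lists were chosen with earlier results of these data known. Of each list, the 2 genes with the largest passing change under JSH-23 alone and under LPS alone (with 1 CPM or more on average in the higher group) were to be named, with Nfe2l2, Keap1 and Bach1 always, and the 3 genes most like the 2 members with the largest changes.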

Additional observations from a re-analysis of the deposited data

Results flagged for a closer look

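The log2 fold change with LPS differed with and without JSH-23, by the interaction term of the edgeR fit, for 4 of the 10 genes. That term passed for 18% of all tested genes. The difference in log2 fold change, after JSH-23 minus without it, was -0.25 for Txnrd1, -0.40 for Slc7a11 and -0.24 for Gsr. It was 0.63 for Osgin1, which fell with LPS alone. The first 3 rose by a smaller factor after JSH-23, from a higher starting level. Mean CPM of Txnrd1 went from 719 to 1530 without JSH-23 and from 1167 to 2082 after it. The same means were 881 to 2186 and 1480 to 2782 for Slc7a11, and 194 to 290 and 246 to 311 for Gsr. Adjusted p-values were 0.00139, 2.21e-05, 0.0029 and 0.000885. Without the third library of WTL + JSH23, which stood apart from its group, all 4 still passed.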

How the results depend on the processing

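Leaving out each library in turn kept direction and call for 586 of 600 combinations of gene, comparison and library, with 10 calls lost and 4 gained. Many combinations leave out a library that is not in the comparison and can change it little. The lost calls were for Gsr with JSH-23 under LPS and for Gclc and Osgin1 with LPS after JSH-23. The other alternatives, 1 of them chosen after seeing the data, kept 400 of 420, with 12 lost, 6 gained and 2 reversed. Both reversals came with limma on unscaled log2(TPM + 1): Hmox1 with LPS alone at -0.27 (adjusted p = 0.00778) and Osgin1 with LPS after JSH-23 at -0.0714 (adjusted p = 0.6). In that fit 0 of the members passed 2-fold with LPS alone, against 2 in the edgeR fit. For the interaction 2 passed, against 4 (Txnrd1 and Gsr lost, adjusted p = 0.19 and 0.246). Of all 14357 genes, 1345 passed 2-fold with LPS alone and 1762 the interaction in that fit, against 2361 and 2582 in the edgeR fit. TMM factors were 0.859 to 0.88 in WTL and 1.08 to 1.1 in WT. With TPM divided by these factors, an alternative chosen after seeing the data, Hmox1 was at 0.06 and Osgin1 at 0.16. There 2 members passed 2-fold with LPS alone and 4 the interaction. With LPS after JSH-23, 5 passed, against 8 in the edgeR fit (Gclm, Gclc and Osgin1 lost). Of all 14357 genes, 1131, 1299 and 6550 passed in these counts, in that order, and 7828 in the edgeR fit for LPS after JSH-23. With only the compared groups fitted, Hmox1 passed with LPS alone (0.08, adjusted p = 0.0428). The cause of these differences was not tested.

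With the replicate block, 8 of the 10 genes passed with LPS alone and 4 for the interaction. With LPS after JSH-23, 9 passed (Hmox1 added, 0.15, adjusted p = 0.00502). Of all 14357 genes, 9539 passed with LPS alone, 7960 with LPS after JSH-23 and 2968 for the interaction in that fit. Deviations of all 6 same-numbered pairs correlated above 0, but under 0.1, and 11 of 12 pairs of different number below 0. The deviations were taken from the mean of each group, so these signs are not independent of one another. Of the 6 libraries without LPS, 5 correlated best with their own number, a hint of pairing from the data, and the first of WT + JSH23 with the second of WTL + JSH23.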

Other observations

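A list of 6 genes held enzymes that make NADPH, other than Me1 (G6pdx, Pgd, Idh1 and Idh2). It also held Tkt and Taldo1, enzymes of the pentose phosphate pathway that do not themselves make NADPH. Of the 6, 2 rose (Pgd and Taldo1) and 4 fell with JSH-23 alone, and none rose and 5 fell with LPS alone. The medians of the list were -0.11 and -0.17, beside -0.01 and -0.05 over all tested genes. Of all tested genes 18.8% rose and 22.1% fell with JSH-23 alone, and 31% rose and 34.7% fell with LPS alone. Taldo1, of the pentose phosphate pathway, rose by 0.62 on the log2 scale with JSH-23 alone, while the isocitrate dehydrogenases Idh2 and Idh1 fell, Idh2 by 0.46 with JSH-23 and by 0.27 with LPS and Idh1 by 0.85 with LPS.

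The NADPH oxidase of phagocytes, which makes superoxide, had 2 genes higher and 3 lower of 6 with JSH-23 alone, and 5 higher and 1 lower with LPS alone, with medians of -0.09 and 0.23, against the same shares of all genes. Ncf4 and Rac2 fell by 0.84 and 0.59 with JSH-23, and Ncf1 and Cybb rose by 0.91 and 0.39 with LPS. Of 3 genes that remove superoxide and hydrogen peroxide, Cat and Sod1 rose by 0.58 and 0.34 with JSH-23 alone, and the mitochondrial Sod2 fell by 0.12 (adjusted p = 0.00918). With LPS alone Sod2 and Sod1 rose by 1.01 and 0.16 and Cat fell by 0.28, against the same shares of all genes.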
